A study of Mus musculus with 6 samples.

Results

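Integrins are cell surface receptors made of 1 α and 1 β subunit, and the 9 subunit genes described here encode receptors for fibronectin, vitronectin or latent TGF-β. They were taken by name from the 57132 genes of the count table: the α subunits Itgav, Itga5, Itga8, Itga4 and Itga9 and the β subunits Itgb3, Itgb5, Itgb6 and Itgb8. All 9 were found, and 8 had enough counts to be tested. RNA was sequenced from 3 samples of immortalized wildtype podocytes (IMWT, genotype Col4a3+/+, here WT) and 3 samples of immortalized Alport syndrome podocytes (IMAS, genotype Col4a3-/-, here AS), and the comparison is AS over WT. Podocytes are the epithelial cells that cover the glomerular capillaries of the kidney, and Alport syndrome is a disease of the type IV collagen network on which they sit.

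Both lines are described as coming from male mice of 8 weeks, and both were obtained by crossing with H-2Kb-tsA58 mice, whose temperature-sensitive large T antigen is driven by an interferon-inducible promoter. The labels give growth at 33 °C in medium with 10% fetal bovine serum and 20 U/mL interferon gamma, followed by differentiation for 14 days at 37 °C, with no treatment. The study's methods give a shorter differentiation, without interferon at 37 °C. As there is only 1 line of each genotype, an effect of genotype cannot be told apart from one of the line. The sample labels do not say whether the sets 1 to 3 of a line are separate cultures, and p-values measure only the spread between these samples.

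Most integrins of this group recognise the tripeptide Arg-Gly-Asp (RGD) in their ligands. The αv subunit pairs with β1, β3, β5, β6 or β8, whereas α5, α8 and α9 pair with β1, and α4 with β1 or β7. The receptors α5β1 and αvβ3 bind fibronectin, αvβ3 and αvβ5 bind vitronectin, α8β1 binds nephronectin, and αvβ6 and αvβ8 bind the latency peptide of TGF-β and release the active growth factor. The α4 and α9 subunits belong to the group through their ligands and not through RGD: they recognise other sequences in fibronectin, VCAM1, tenascin C and osteopontin. In podocytes, the best known integrin is the laminin receptor α3β1, while α8β1 is known from mesangial cells and kidney development, and αvβ3 has been linked to podocyte motility.

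Between 45417221 and 54290968 reads were counted on genes in each sample. Col4a3 was at 938, 1052 and 1272 CPM (counts per 1000000, relative to library sizes scaled by TMM) in WT podocytes and at 62.4, 61.2 and 82.9 CPM in AS podocytes, which matches the labels. The podocyte identity of the lines was checked on 14 marker genes, which summed to 1452 to 1706 CPM in WT and 1125 to 1227 CPM in AS podocytes. Tcf21 had 0 counts in every sample, Nphs1 (nephrin) was at most 0.473 CPM, whereas Synpo (synaptopodin) lay between 758 and 847 CPM in WT and between 497 and 558 CPM in AS podocytes, and Wt1 between 15.3 and 25.8 and between 1.44 and 3.14 CPM. Of the 11 podocyte markers tested, 3 rose and 6 fell in AS podocytes at an adjusted p under 0.05 (edgeR's quasi-likelihood test), where 40.1% of all genes tested passed. The samples of 1 line differed by more than sampling noise, with a chi-square per degree of freedom of 48.6 and 50.97 for WT replicate 1 against the other WT samples and 9.96 to 22.96 for the other pairs of a line.

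The promoter windows of 4 subunits that passed the test are printed here, the 2 with the largest rise (Itga9, Itga5) and, among those matched in RefSeq, the 2 that fell (Itgb8, Itgav). They show where transcription of these genes starts, from 250 bases before to 50 bases after the start site, 5′ to 3′. The sequences and positions are those of RefSeq on GRCm38.p6, which is not the build named in the submitters' processing notes (mm39), and entries matched for 8 of the 9 subunits, not for Itgb3. Capitals mark, on both strands, GGGCGG (the GC box of Sp factors), TGANTCA (AP-1), CCAAT (the CCAAT box) and CAGACA (a sequence bound by Smad proteins, which carry the TGF-β signal); none of these matches overlaps another.
Itga9, chr9:118711442-118711741, plus strand: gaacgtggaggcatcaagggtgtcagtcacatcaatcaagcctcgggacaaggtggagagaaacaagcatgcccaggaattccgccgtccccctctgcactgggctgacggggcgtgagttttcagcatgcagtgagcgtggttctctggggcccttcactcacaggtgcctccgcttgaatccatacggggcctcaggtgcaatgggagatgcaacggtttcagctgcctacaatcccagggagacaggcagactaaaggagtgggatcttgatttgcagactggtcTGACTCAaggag
Itga5, chr15:103366742-103367041, minus strand: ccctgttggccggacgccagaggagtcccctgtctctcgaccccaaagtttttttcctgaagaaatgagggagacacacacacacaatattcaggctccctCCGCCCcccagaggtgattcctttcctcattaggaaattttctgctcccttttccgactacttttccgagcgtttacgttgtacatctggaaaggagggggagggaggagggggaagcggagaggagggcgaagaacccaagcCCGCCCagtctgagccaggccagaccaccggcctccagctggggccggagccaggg
Itgb8, chr12:119238227-119238526, minus strand: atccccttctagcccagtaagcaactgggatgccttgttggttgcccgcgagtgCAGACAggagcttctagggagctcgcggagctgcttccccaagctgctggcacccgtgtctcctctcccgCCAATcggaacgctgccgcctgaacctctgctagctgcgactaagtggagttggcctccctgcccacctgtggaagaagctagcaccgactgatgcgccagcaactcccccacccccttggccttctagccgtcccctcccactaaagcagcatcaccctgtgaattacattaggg
Itgav, chr2:83724147-83724446, plus strand: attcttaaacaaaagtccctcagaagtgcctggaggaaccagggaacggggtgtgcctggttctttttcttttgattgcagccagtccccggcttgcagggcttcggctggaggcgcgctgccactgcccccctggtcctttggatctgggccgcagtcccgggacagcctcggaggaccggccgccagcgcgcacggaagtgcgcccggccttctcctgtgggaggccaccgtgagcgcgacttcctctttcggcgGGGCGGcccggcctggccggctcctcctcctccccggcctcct
Of 32851 promoter windows of the same length, 35.7% held GGGCGG, 7.81% TGANTCA, 37.4% CCAAT and 21.04% CAGACA. The Itga9 window held 1 AP-1 match, 39 bases into the transcript, and the Itga5 window held 2 GC box matches. The Itgb8 window held 1 CCAAT match and 1 CAGACA match, and the Itgav window 1 GC box match. The GC content was 56.7% for Itga9, 58.7% for Itga5, 60.7% for Itgb8 and 67.3% for Itgav, against a median of 52.7% over all windows. These letters describe the windows, and binding of a factor was not measured.

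Among the 8 subunits tested, 3 were higher in AS podocytes (Itga5, Itga9 and Itgb5), 3 were lower (Itgav, Itgb3 and Itgb8) and 2 did not pass the threshold of an adjusted p under 0.05 (Itga8 and Itga4). Over all 16263 genes tested, 40.1% passed in edgeR's quasi-likelihood test, 20.4% higher and 19.6% lower in AS podocytes. The CPM of the WT and AS samples did not overlap for the same 6 subunits, 3 with all AS samples higher and 3 with all AS samples lower, and this was also the case for 52.3% of all genes tested, 26.4% higher and 26% lower. The median log2 fold change (log2FC) of the 8 subunits was -0.29 and their median absolute log2FC was 0.55, where all genes tested had 0.0061 and 0.28. In these bulk samples, fewer cells that express a gene and less RNA per cell cannot be told apart.

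**Figure D1:**
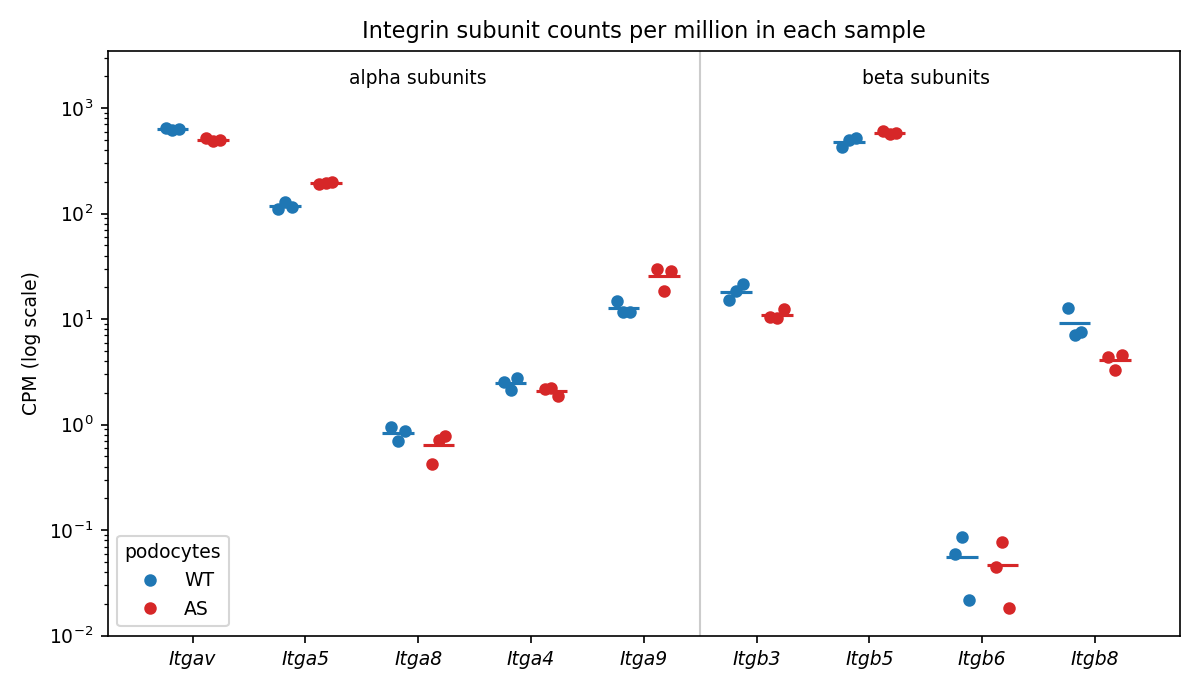
CPM of the 9 subunit genes on a log axis, with 1 point per sample (WT blue, AS red) and a bar at the mean of each line. The subunits span from below 0.1 CPM (Itgb6) to 644 CPM (Itgav in WT replicate 1), and for Itgav, Itga5, Itga9, Itgb3, Itgb5 and Itgb8 the WT and AS points are separate.

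Itgav (ENSMUSG00000027087.12, chromosome 2) encodes αv, the α subunit of 5 receptors. It was at 644, 619 and 635 CPM in the WT samples and at 519, 492 and 498 CPM in the AS samples. The 3 AS samples were all lower than the 3 WT samples, with little spread within a line. The means were 633 ± 12.8 and 503 ± 14.1 CPM (SD, n = 3 each), and the log2FC was -0.33 (standard error, SE, 0.06, adjusted p = 0.00154, edgeR). AS podocytes thus held 0.795 times the WT level.

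Itga5 (ENSMUSG00000000555.9, chromosome 15), the α subunit of the classical fibronectin receptor α5β1, was at 109.6, 128 and 115 CPM in WT, compared with 191, 193 and 198 CPM in AS podocytes. All AS samples were higher than all WT samples. The means were 117 ± 9.41 and 194 ± 3.47 CPM (SD, n = 3 each), 1.66 times the WT level, with a log2FC of 0.73 (SE 0.07, adjusted p = 3.12e-05, edgeR). The genes of chromosome 15 as a whole were higher in AS podocytes, with a median log2FC of 0.20 over 429 genes with a mean log2 CPM over 2, and 0.52 was left for Itga5 after this median was subtracted. The chromosomes of the other 7 subunits tested had medians between -0.06 and -0.0016.

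Itga8 (ENSMUSG00000026768.11, chromosome 2), the α subunit of the nephronectin receptor α8β1, was near the limit of what can be compared. It was at 0.947, 0.705 and 0.867 CPM in WT, compared with 0.422, 0.7198 and 0.781 CPM in AS podocytes, from 121 and 99 counts over the 3 samples. The groups overlapped. The log2FC of -0.38 had a 95% interval from -1.12 to 0.36 (adjusted p = 0.395, edgeR), and this interval holds falls and rises alike.

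The α subunits that do not use RGD were both present. Itga9 (ENSMUSG00000039115.14, chromosome 9), which forms the tenascin C and osteopontin receptor α9β1, was at 14.8, 11.8 and 11.8 CPM in WT, compared with 30.1, 18.5 and 28.5 CPM in AS podocytes. The groups did not overlap, although AS replicate 2 lay well below the other AS samples. The means of 12.8 ± 1.74 and 25.7 ± 6.30 CPM (SD, n = 3 each) gave 2.01 times the WT level and a log2FC of 1.00 (SE 0.18, adjusted p = 0.00162, edgeR), and without AS replicate 2 it was 1.19. In the annotation used for names, 2 genes lie on the opposite strand within Itga9 but outside its exons. Itga4 (ENSMUSG00000027009.19, chromosome 2), the α subunit of the VCAM1 receptor α4β1, was at 2.52, 2.14 and 2.75 CPM in WT, compared with 2.20, 2.22 and 1.85 CPM in AS podocytes. These groups overlapped, with a log2FC of -0.24 and a 95% interval from -0.67 to 0.18 (adjusted p = 0.341, edgeR). The exons of Itga4 overlap those of Cerkl on the opposite strand, which had 27 to 48 counts per sample, and whether the counting used strand is not given in the sources used here.

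Itgb5 (ENSMUSG00000022817.16, chromosome 16), which pairs with αv to bind vitronectin, had the highest level per length of the 4 β subunits. The WT samples held 430.3, 500.05 and 518 CPM, against 604, 565 and 586 CPM in the AS samples. The groups did not overlap, with WT replicate 1 the lowest of the 6 samples. The means were 483 ± 46.4 and 585 ± 19.4 CPM (SD, n = 3 each), with a log2FC of 0.28 (SE 0.08, adjusted p = 0.0184, edgeR), or 1.21 times the WT level. This call did not hold without AS replicate 1 (0.24, adjusted p = 0.0747) or without AS replicate 3 (0.27, adjusted p = 0.0618, edgeR for both).

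Itgb3 (ENSMUSG00000020689.5, chromosome 11), the β subunit of the vitronectin and fibronectin receptor αvβ3, changed in the other direction. It was at 15.03, 18.3 and 21.3 CPM in WT, compared with 10.6, 10.2 and 12.4 CPM in AS podocytes. Every AS sample was below every WT sample. The means were 18.2 ± 3.16 and 11.1 ± 1.21 CPM (SD, n = 3 each), 0.607 times the WT level, and the log2FC was -0.72 (SE 0.14, adjusted p = 0.00261, edgeR).

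Itgb6 and Itgb8, the β subunits of αvβ6 and αvβ8, had the lowest levels per length of the 4 β subunits. Itgb8 (ENSMUSG00000025321.15, chromosome 12) was at 12.9, 7.05 and 7.50 CPM in WT, compared with 4.37, 3.31 and 4.52 CPM in AS podocytes. WT replicate 1 was the highest sample, and the other WT samples were still above all AS samples. The means of 9.14 ± 3.24 and 4.07 ± 0.663 CPM (SD, n = 3 each) gave 0.445 times the WT level, with a log2FC of -1.17 (SE 0.24, adjusted p = 0.00387, edgeR). Without WT replicate 1, the log2FC was -0.84 and passed the threshold as well (adjusted p = 0.00233, edgeR). Itgb6 (ENSMUSG00000026971.16, chromosome 2), a subunit known from epithelia, had 3, 4 and 1 counts in WT and 2, 4 and 1 counts in AS podocytes, or 0.0182 to 0.0855 CPM. It was not tested, and no difference was detectable at this depth.

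**Figure D2:**
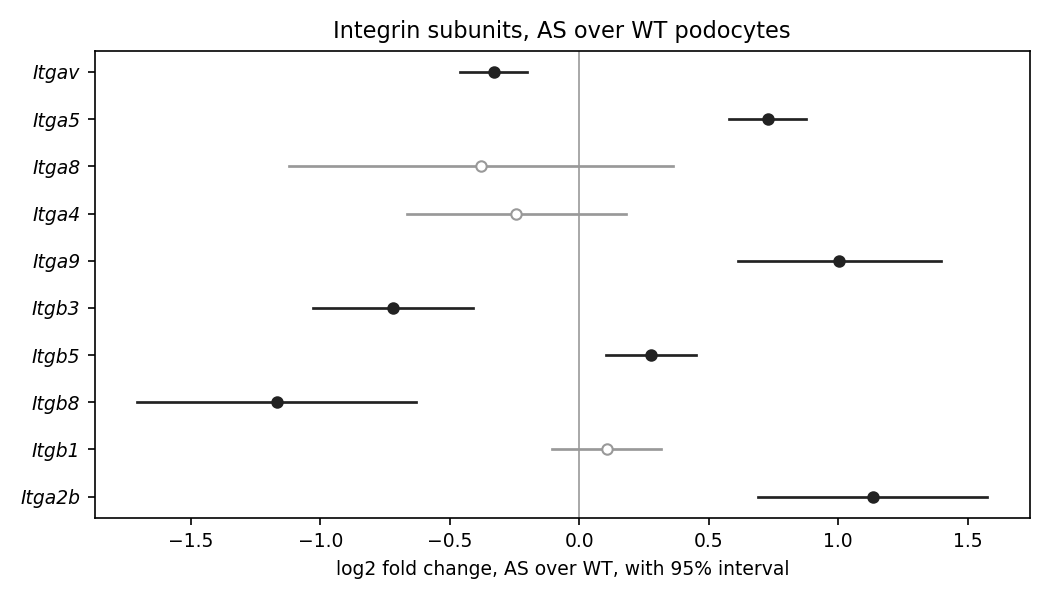
Log2 fold change of AS over WT for the 8 subunits tested and their partners Itgb1 and Itga2b, with 95% intervals (edgeR). Filled points passed an adjusted p under 0.05: Itga5, Itga9, Itgb5 and Itga2b lie right of 0, and Itgav, Itgb3 and Itgb8 lie left of 0, while the intervals of Itga8, Itga4 and Itgb1 include 0.

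The partners that are not among the 9 subunits were read from the same fit. Itgb1 (chromosome 8), the common β subunit of α4, α5, α8, α9 and αv, was at 3082, 3802 and 3817 CPM in WT, compared with 3809, 3975 and 3733 CPM in AS podocytes. The groups overlapped, and the log2FC was 0.11 with a 95% interval from -0.10 to 0.32 (adjusted p = 0.406, edgeR). Chromosome 8 as a whole was shifted by 0.32, and relative to this median Itgb1 was at -0.22. Itga2b, the α subunit that pairs with β3 on platelets, was low but higher in AS podocytes, at 1.54, 2.41 and 2.34 CPM against 4.68, 4.30 and 4.80 CPM, with a log2FC of 1.13 (SE 0.20, adjusted p = 0.00159, edgeR). Itgb7, the other partner of α4, had 1 count over the WT and 25 counts over the AS samples and was not tested.

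Levels of different genes were compared as CPM per kilobase of exon, since a longer transcript yields more reads. The order in WT podocytes was Itgb5 (136 ± 13.1), Itgav (58.9 ± 1.19), Itga5 (23.8 ± 1.91), Itgb3 (3.09 ± 0.536), Itga9 (1.67 ± 0.226), Itgb8 (0.827 ± 0.293), Itga4 (0.177 ± 0.0223), Itga8 (0.114 ± 0.0167) and Itgb6 (0.00780 ± 0.00451 CPM per kilobase, SD, n = 3 each). In AS podocytes the order was the same except that Itga9 (3.34 ± 0.820) stood above Itgb3 (1.87 ± 0.204 CPM per kilobase, SD, n = 3 each). No neighbours in this order overlapped between samples of a line, in either line. Itgav and Itga5 were near each other in AS podocytes, with a lowest Itgav level of 45.8 and a highest Itga5 level of 40.1 CPM per kilobase, and so were Itga9 (lowest 2.41) and Itgb3 (highest 2.11 CPM per kilobase).

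**Figure D3:**
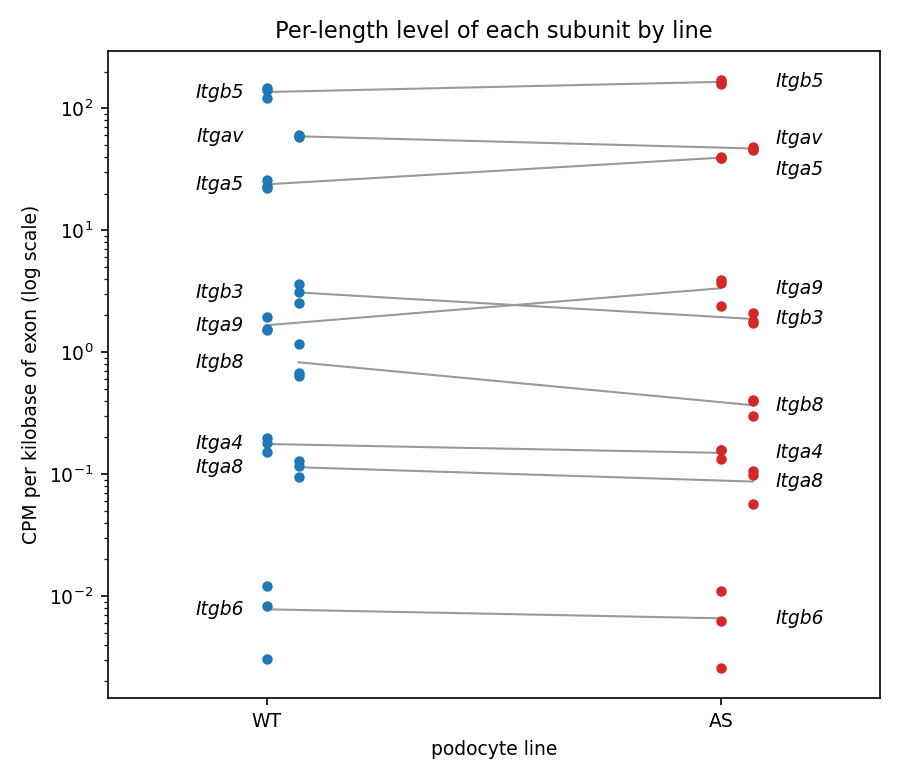
Level of each subunit in CPM per kilobase of exon (log axis) in the WT and AS lines, with 1 point per sample and a line between the means; neighbouring genes are set apart sideways. Itga9 and Itgb3 change places between the lines, and Itgav and Itga5 come closer together in AS podocytes.

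Ratios between subunits were computed in each sample. Per length, Itgav exceeded Itga5 by 2.70, 2.22 and 2.55 times in the WT samples and by 1.25, 1.17 and 1.15 times in the AS samples. The ratio of Itgb5 to Itgb3 per length was 47.6, 45.4 and 40.3 in the WT samples but 94.7, 92.4 and 78.3 in the AS samples. These ratios are made from the subunits already described and are given without a test. In both, the samples of the lines did not overlap.

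Among the 5 β partners of αv (Itgb1, Itgb3, Itgb5, Itgb6 and Itgb8), Itgb1 made up 85.8 to 86.6% of the summed per-length level in WT and 84.4 to 85.8% in AS podocytes. Itgb5 was the next, with 13.1 to 13.8% in WT and 14.01 to 15.4% in AS podocytes. Itgb3 held 0.288 to 0.333% and 0.152 to 0.195%, and Itgb8 held 0.0592 to 0.132% and 0.0263 to 0.0378%. These are shares of RNA, and the pairing of subunits at the cell surface was not measured.

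The genes of 25 ligands of these integrins were given as a list, of which 20 had enough counts. In AS podocytes 2 were higher, 11 were lower and 7 did not pass the threshold, with a median log2FC of -0.52. The share past the threshold was 65.0% of those tested, against 40.1% of all genes. Among the lower genes, Edil3, Madcam1 and Fgb had enough counts for the test in the WT samples only. They held 25, 10 and 0 counts over the AS samples, so a fall was the only difference they could show. With a mean CPM of at least 1 as the filter, 10 ligand genes passed. Fn1, which encodes fibronectin, was at 14696 ± 1282 CPM in WT versus 14629 ± 1156 CPM in AS podocytes (SD, n = 3 each). Its log2FC was -0.01 with a 95% interval from -0.23 to 0.21 (adjusted p = 0.966, edgeR), and the sign of this value changed with the scaling. Vtn, which encodes vitronectin, had 0 counts in every sample, so that its level could be at most 0.0209 CPM in the WT line and 0.0198 CPM in the AS line (3 counts summed over a line, counting error only).

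Several ligands of specific members fell. Npnt (nephronectin, the ligand of α8β1) was at 755, 642 and 492 CPM in WT, compared with 391, 336 and 330.2 CPM in AS podocytes, with a log2FC of -0.84 (adjusted p = 0.00120, edgeR). Spp1 (osteopontin, bound by αvβ3 and α9β1) was at 1693, 851 and 972 CPM in WT, compared with 242, 183 and 224 CPM in AS podocytes, and its log2FC was -2.44 (adjusted p = 4.90e-05, edgeR). WT replicate 1 was the highest sample for both, and all AS samples lay below all WT samples. Without WT replicate 1, they were at -0.69 and -2.07 on the log2 scale.

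Tnc (tenascin C, a ligand of α9β1) was at 2493 ± 328 CPM in WT versus 1722 ± 130.2 CPM in AS podocytes (SD, n = 3 each), a log2FC of -0.53 (adjusted p = 0.00269, edgeR). Vcam1, the cell surface ligand of α4β1, was at 43.7 ± 5.80 versus 22.2 ± 2.21 CPM (SD, n = 3 each), with a log2FC of -0.98 (adjusted p = 0.000115, edgeR). Fbln5 (fibulin 5, an RGD protein of elastic fibres) fell from 697 ± 34.5 to 366 ± 3.04 CPM (SD, n = 3 each), a log2FC of -0.93 (adjusted p = 4.04e-06, edgeR).

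The ligand genes that rose were Postn and Mfge8. Postn (periostin, bound by αvβ3 and αvβ5) was at 13.8, 23.5 and 19.2 CPM in WT, compared with 90.4, 61.7 and 105.8 CPM in AS podocytes, with a log2FC of 2.19 (adjusted p = 6.23e-05, edgeR). Mfge8, an RGD protein that links αv integrins to dying cells and was named after its value was seen, was at 418 ± 59.8 CPM in WT versus 748 ± 55.8 CPM in AS podocytes (SD, n = 3 each), with a log2FC of 0.84 (adjusted p = 0.000246, edgeR).

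The list of latent TGF-β genes held Tgfb1, Tgfb2, Tgfb3, Ltbp1, Ltbp2, Ltbp3, Ltbp4, Lrrc32 and Nrros, of which 8 of 9 were tested. In AS podocytes 4 were higher and 1 was lower, with 3 that did not pass. The median log2FC of these 8 was 0.18, and 62.5% passed, against 40.1% of all genes. Tgfb1 was at 21.4 ± 1.76 CPM in WT versus 26.5 ± 1.45 CPM in AS podocytes (SD, n = 3 each), a log2FC of 0.31 (adjusted p = 0.0139, edgeR) that did not pass without WT replicate 3 (adjusted p = 0.0530) or AS replicate 3 (adjusted p = 0.0662, edgeR for both). Tgfb3, the most abundant TGF-β gene per length, was at 856 ± 62.04 versus 612 ± 29.8 CPM (SD, n = 3 each), with a log2FC of -0.48 (adjusted p = 0.000738, edgeR). Tgfb2 was at 94.7 ± 9.44 versus 96.5 ± 7.56 CPM (SD, n = 3 each), and its log2FC of 0.03 had a 95% interval from -0.16 to 0.21 (adjusted p = 0.830, edgeR).

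Among the genes of proteins that hold latent TGF-β in the matrix or at the cell surface, 3 rose. Ltbp2 and Ltbp3, listed with them, did not pass the threshold. Ltbp2 was at 667 ± 48.1 CPM in WT versus 684 ± 37.1 CPM in AS podocytes (SD, n = 3 each; log2FC 0.04, adjusted p = 0.728, edgeR). Ltbp3 was at 1178 ± 71.2 versus 1226 ± 60.2 CPM (SD, n = 3 each; log2FC 0.06, adjusted p = 0.561, edgeR). Lrrc32, which encodes GARP, the membrane anchor of latent TGF-β that αvβ8 acts on, was at 43.4, 39.1 and 49.4 CPM in WT, compared with 160.4, 154 and 189.8 CPM in AS podocytes, a log2FC of 1.94 (adjusted p = 9.87e-07, edgeR). Ltbp4 rose from 2.94 ± 0.487 to 18.1 ± 2.07 CPM and Ltbp1 from 74.2 ± 6.50 to 135.5 ± 6.62 CPM (SD, n = 3 each). The log2FC values of these latent TGF-β binding proteins were 2.62 (adjusted p = 1.47e-06) and 0.87 (adjusted p = 1.80e-05, edgeR for both). Itgb8 was lower in the same AS samples.

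**Figure D4:**
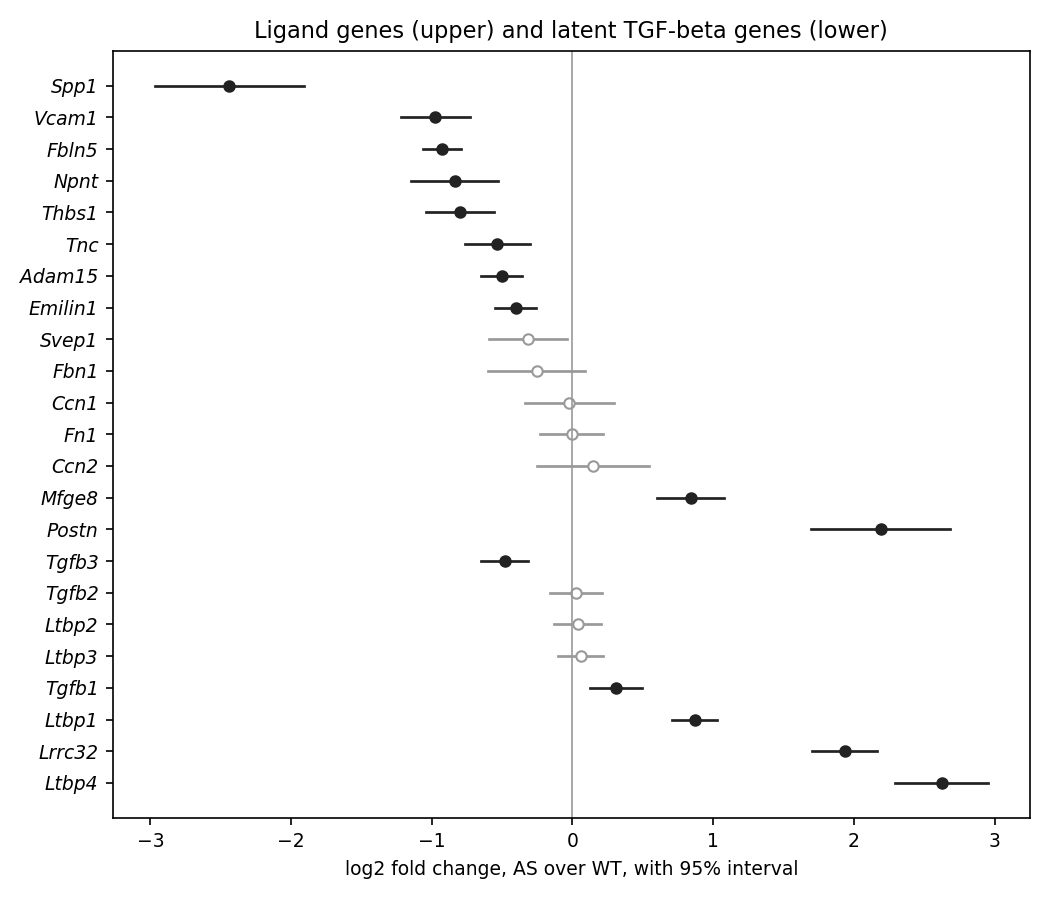
Log2 fold change of AS over WT with 95% intervals (edgeR) for the 15 ligand genes with a mean of at least 1 CPM (upper) and the 8 latent TGF-β genes tested (lower), each sorted by value. Filled points passed an adjusted p under 0.05; Spp1 (-2.44) is farthest to the left, and Postn (2.19) and Ltbp4 (2.62) are farthest to the right.

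Inside the cell, integrins are activated by talins and kindlins and linked to actin by adaptor proteins. Of 31 such genes, all of which were tested, 8 were higher, 8 were lower and 15 did not pass, with a median log2FC of 0.01 and 51.6% past the threshold, against 40.1% of all genes. The 5 with the smallest adjusted p moved in both directions. Parvb (β-parvin, a partner of integrin-linked kinase) was at 14.9, 19.7 and 20.3 CPM in WT, compared with 134, 135.4 and 129 CPM in AS podocytes, a log2FC of 2.86 (adjusted p = 1.08e-07, edgeR). Fermt1 (kindlin 1) was at 7.18, 7.31 and 11.8 CPM in WT, compared with 0.0444, 0.156 and 0.309 CPM in AS podocytes, from 1250 and 27 counts, a log2FC of -5.61 (SE 0.41, adjusted p = 7.89e-06, edgeR). Related genes of the list did not pass the threshold. Fermt2 (kindlin 2) was at 273 ± 28.4 CPM in WT versus 266 ± 9.84 CPM in AS podocytes (SD, n = 3 each; log2FC -0.04, adjusted p = 0.720, edgeR). Parva (α-parvin) was at 387 ± 16.4 versus 374 ± 7.88 CPM (SD, n = 3 each; log2FC -0.05, adjusted p = 0.535, edgeR).

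Among the listed tensins, which connect β subunit tails to actin, Tns1 and Tns3 fell and Tns2 rose. Tns3 went from 486 ± 34.6 to 410 ± 14.9 CPM (SD, n = 3 each), a log2FC of -0.24 (adjusted p = 0.0185, edgeR). Tns1 fell from 3056 ± 497 to 1261 ± 115 CPM (log2FC -1.28, adjusted p = 4.11e-05) and Tns2 rose from 66.4 ± 0.846 to 114.9 ± 0.6998 CPM (SD, n = 3 each; log2FC 0.79, adjusted p = 2.42e-06, edgeR for both). Lims1 (PINCH1) rose from 171 ± 6.72 to 232 ± 6.81 CPM (SD, n = 3 each), a log2FC of 0.44 (adjusted p = 0.000250, edgeR). Lims1 lies on chromosome 10, whose median was 0.32, and 0.12 was left once this was subtracted. Parvb and Tns2 lie on chromosome 15, as does Itga5, and kept 2.66 and 0.59.

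Marker genes of other kidney cells were read in the same samples, since several of these subunits are known from such cells. Markers are counted as higher or lower in AS podocytes at an adjusted p under 0.05 (edgeR), which 40.1% of all genes tested passed. Endothelial markers summed to 44.7 to 52.4 CPM in WT and 37.96 to 42.96 CPM in AS podocytes, nearly all of it Ehd3, with 2 of 8 tested, both lower, and Tie1 at 0 throughout. Leukocyte markers summed to 11.4 to 15.9 and 5.69 to 7.35 CPM, mostly Csf1r, with 4 of 7 tested and 1 lower, and Adgre1 and Cd3e at 0. Markers of mesangial cells, in which Itga8 is best known, summed to 5835 to 7992 and 6590 to 7705 CPM, mostly Acta2, with 6 of 8 tested, 1 higher and 2 lower. Parietal epithelial markers summed to 1168 to 1197 and 1281 to 1357 CPM (5 of 6 tested, 1 higher and 2 lower), and tubule markers to 428 to 494 and 455 to 606 CPM (3 of 8 tested, 1 higher and 1 lower), with Umod and Aqp2 at 0. The part of these genes in the subunit changes was not tested.

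The genes whose pattern over the 6 samples was most like that of the subunits with a log2FC of at least 1 in size were looked up among 12772 genes. For Itga9 they were Grasp and Gm36445, with a root mean square difference of 0.105 and 0.106 on the centred log2(CPM + 0.5) scale. For Itgb8 they were Aebp1 and Slc5a12, at 0.0918 and 0.0941.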

How the data were processed

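RNA of 3 WT and 3 AS podocyte samples was measured by RNA-seq from mRNA libraries made with 15 cycles of PCR. The authors deposited a table of raw read counts for every gene, not normalized. The submitters' processing notes name FastQC, Trim Galore, STAR, edgeR and the build mm39. The counting tool, annotation release and strand setting were not given in the sources used here. Identifiers were matched without their version to GENCODE M21 (GRCm38): 51880 of 57132 matched, 35 with the same version, and unmatched genes held 0.363% of the counts. That annotation gave names, chromosomes and exon lengths only.

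Samples were grouped by their description label. Differential expression was computed with edgeR 4.0.16 (R 4.3.3). The filter was filterByExpr, with a minimum count of 10 and a minimum total of 15, and genes passing it were scaled by TMM and tested with the quasi-likelihood test, two-sided, with genotype as the only term and Benjamini-Hochberg adjustment over all 16263 genes. The study's methods name limma with voom, which was run as an alternative. Standard errors, and the 95% intervals made from them, were obtained by dividing the size of log2FC by the root of the F statistic. Exact permutation tests of 3 against 3 cannot go below 0.10. Depth was 45417221 to 54290968 counts per sample, and limits for 0 counts cover counting error only, since no molecular identifiers are named in the sources and PCR copies cannot be told apart. The test was run on simulated counts with known changes, where the share of false calls was above the nominal rate. Far fewer genes were changed there than were called in these data, so that share does not carry over to the calls given here.

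The members and lists (partners, ligands, latent TGF-β, adaptors, markers) were chosen with earlier results of these data known. Named genes are all members and partners, Fn1, Vtn, Npnt, Spp1 and Tnc, TGF-β 1 to 3, Col4a3, the 3 other ligand genes, 3 other latent TGF-β genes and 5 adaptor genes with the smallest adjusted p, and the most similar genes of members with a log2 fold change of at least 1 in size. A few marker genes, Edil3, Madcam1, Fgb, Mfge8, Fermt2, Parva, Ltbp2, Ltbp3 and Tns3 were named after their values were seen. Alternatives were RLE size factors, library size only, limma-voom 3.58.1, DESeq2 1.42.0, no filter, a filter on mean CPM (1 or more), fits with the replicate block, fits that leave 1 sample out, the median of each chromosome subtracted, the length of the longest transcript, and the thresholds in the study's methods (p below 0.05 unadjusted, fold change above 2).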

Additional observations from a re-analysis of the deposited data

How the results depend on the processing

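The 6 subunits called, 3 higher and 3 lower, stayed 6 with RLE size factors, library size only, limma-voom, DESeq2, no filter, a mean CPM of at least 1 and the replicate block, and were 5 to 6 with 1 sample left out. The study's methods name an unadjusted p below 0.05 with a fold change above 2, used there with limma-voom. Applied to the edgeR fit, these thresholds were passed by 2 subunits (Itga9 and Itgb8) and by 12.1% of all genes tested. Itga9 lay at this fold change, with a log2FC of 1.00. With limma-voom its log2FC was 0.97, which is below this fold change. Of 103 values of the 8 subunits, 101 had the same direction and call as in the fit described, and 2, both of Itgb5, did not pass any more. With 1 sample left out, the genes called over the whole table were 5061 to 6729, the ligand genes 13 to 14, the latent TGF-β genes 4 to 5 and the adaptor genes 13 to 17. The ligand genes called were 10 with a mean CPM of at least 1 and 16 with no filter. The order of the 9 subunits per length was the same with the longest transcript.

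The direction was reversed for genes that did not pass the threshold. Fn1 was at 0.0186 on the log2 scale with library size only, between -0.0810 and 0.0527 with 1 sample left out and at 0.0053 with the chromosome median subtracted. Tgfb2 ran from -0.0303 to 0.11 with 1 sample left out, and Itgb1 was at -0.22 with the chromosome median subtracted. The set numbers 1 to 3 are shared by both lines, and the labels do not say what they stand for. Between samples of equal number, the correlation of their deviations from the mean of the line was 0.147, 0.0939 and 0.0526. Between samples of unequal number it ran from -0.130 to 0.0571. These few values do not settle whether the numbers pair the samples, and the fit described has no term for them. The replicate block called 7066 genes against 6517 without it, and it left the calls of the 8 subunits as they were. Depth limits Itgb6, Itgb7 and Itga8.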
